A study of Homo sapiens with 12 samples.

Results

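The genes described here are 8 human long non-coding RNAs (lncRNAs) in prostate cancer cells: NEAT1, MALAT1, PCA3, PCGEM1, DRAIC, PVT1, PCAT1 and SCHLAP1. They were taken from the deposited gene tables by gene name and are 8 of the 60106 genes listed, of which 13111 are annotated as lincRNA or antisense. RNA had been sequenced from PC3, a line from a bone metastasis, and VCaP, a line from a vertebral metastasis with a rearranged ERG gene. In each line, 3 libraries came from cells given a non-targeting siRNA (NSI) and 3 from cells given an siRNA against FOXA1 (siFOXA1), a forkhead transcription factor of the prostate epithelium, all transfected with RNAiMax and collected after 72 hours. PC3 cells grew in RPMI, received 20 nM siRNA and were sequenced as polyadenylated RNA (TruSeq stranded mRNA). VCaP cells grew in DMEM, received 40 nM siRNA and were sequenced as total RNA (TruSeq total RNA). Every group shares the transfection itself. The effects of line, dose, medium and library kit cannot be told apart, so levels are compared within a line. Only the response to siFOXA1 is compared between lines, and a difference in response carries the same effects together. The labels number the replicates and do not say whether they are separate cultures, so the p-values measure the spread between these libraries, which may be technical. The question, from the title of the study, was what FOXA1 does to gene expression, chiefly of splicing genes, and the lncRNAs are read here as part of that response.

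LncRNAs are transcribed by RNA polymerase II and mostly spliced, and act as RNA rather than through a protein. NEAT1 is the RNA scaffold of paraspeckles, nuclear bodies that hold RNA-binding proteins such as NONO and SFPQ, and MALAT1 is a very abundant RNA of nuclear speckles, where splicing factors collect. RNase P cleavage makes the 3′ end of the main MALAT1 transcript and of the long NEAT1 isoform. Both end in a triple helix instead of a poly(A) tail, so the choice of library kit bears on their counts. PCA3 is measured in urine as a prostate cancer marker, PCGEM1 and DRAIC are known from androgen-responsive prostate cells, PCAT1 and SCHLAP1 were found as transcripts raised in prostate tumours, and PVT1 lies next to MYC and is often amplified with it.

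The PC3 libraries held 123140099 to 188226483 counts each, and the VCaP libraries 48187047 to 59839211. FOXA1, the siRNA target, stood at 296.2, 246.5 and 260.9 CPM (counts scaled to a common library size) in the PC3 NSI libraries and at 165.0, 184.1 and 163.6 CPM in siFOXA1. In VCaP it stood at 457.6, 467.9 and 543.5 CPM in NSI and at 85.2, 73.6 and 83.1 CPM in siFOXA1. The groups did not overlap in either line, and the log2 fold changes were −0.65 in PC3 (SE 0.10) and −2.60 in VCaP (SE 0.09), with edgeR quasi-likelihood adjusted p of 0.0022 and 1.84e-07. Line markers matched the labels: summed luminal and VCaP markers (KLK3, KLK2, TMPRSS2 and ERG) were 1930 to 2290 CPM in VCaP NSI and 0.357 to 0.464 CPM in PC3 NSI, while VIM and CD44 together were 1055 to 1128 CPM in PC3 NSI and 5.10 to 6.43 CPM in VCaP NSI. Epithelial markers (EPCAM, KRT8, KRT18, CDH1) were present in both lines. Of 8 markers of blood, endothelium, fibroblasts and glia, 7 were matched in the tables.

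Promoter windows, from 250 bases before to 50 after a RefSeq gene start (GRCh38.p14), were given for 4 of the 8 lncRNAs, as 6 windows: 1 for DRAIC, 1 for PCGEM1, 2 for MALAT1 and 2 for PCA3. NEAT1, PCAT1, PVT1 and SCHLAP1 had none in the table. The windows are shown for the lncRNAs with a window whose VCaP groups did not overlap, with matches in capitals to a forkhead core (TGTTTAC or TGTTTGC or TATTTAC or TATTTGC), searched on both strands. No match overlapped another. The DRAIC window held 3 forkhead cores, TATTTGC on the printed strand at −108 from the start and TGTTTGC on the other strand at −5 and 34, where it reads GCAAACA. Neither MALAT1 window, neither PCA3 window and not the PCGEM1 window held a match; the MALAT1 and PCGEM1 windows are printed for comparison.
DRAIC, chr15:69561470-69561769, plus strand: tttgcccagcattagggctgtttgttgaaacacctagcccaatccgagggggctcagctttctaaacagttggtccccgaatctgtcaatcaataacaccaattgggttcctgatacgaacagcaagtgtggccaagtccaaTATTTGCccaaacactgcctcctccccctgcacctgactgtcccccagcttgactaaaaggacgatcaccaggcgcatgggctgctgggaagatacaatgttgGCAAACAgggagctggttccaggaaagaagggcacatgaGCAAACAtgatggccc
MALAT1 upstream start, chr11:65497488-65497787, plus strand: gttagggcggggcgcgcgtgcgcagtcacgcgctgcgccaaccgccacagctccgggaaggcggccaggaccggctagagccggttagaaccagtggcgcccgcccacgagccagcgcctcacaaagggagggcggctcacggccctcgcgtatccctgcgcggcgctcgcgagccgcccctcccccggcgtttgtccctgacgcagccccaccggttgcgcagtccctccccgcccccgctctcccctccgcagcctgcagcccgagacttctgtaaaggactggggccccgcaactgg
MALAT1 downstream start, chr11:65498795-65499094, plus strand: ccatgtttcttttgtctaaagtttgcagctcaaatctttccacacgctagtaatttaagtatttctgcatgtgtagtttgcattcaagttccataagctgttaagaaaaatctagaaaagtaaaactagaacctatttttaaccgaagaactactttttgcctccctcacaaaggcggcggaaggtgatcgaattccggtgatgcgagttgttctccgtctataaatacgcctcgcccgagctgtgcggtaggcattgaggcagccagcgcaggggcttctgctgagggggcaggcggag
PCGEM1, chr2:192749595-192749894, plus strand: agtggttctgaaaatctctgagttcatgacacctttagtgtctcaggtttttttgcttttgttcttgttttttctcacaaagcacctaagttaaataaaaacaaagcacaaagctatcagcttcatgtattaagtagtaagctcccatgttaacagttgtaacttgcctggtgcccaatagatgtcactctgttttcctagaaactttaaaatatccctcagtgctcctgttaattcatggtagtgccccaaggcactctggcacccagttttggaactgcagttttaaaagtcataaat
Among all 35116 windows of this length, 12.1% held at least 1 forkhead core and 0.137% (48 windows) held 3 or more. These are matches of letters and no measure of binding.

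Of the 8 lncRNAs, 6 passed the filter on low counts in PC3, and the same 6 in VCaP; PCA3 and PCGEM1 did not pass in either line. In the main PC3 fit, which used no replicate block, 1 of the 6 changed at an adjusted p under 0.05. This was NEAT1, which rose, where 27.0% of all 26435 genes tested were called (15.0% higher and 12.1% lower). In VCaP, 4 of the 6 changed, NEAT1, MALAT1 and PVT1 upward and DRAIC downward, where 45.8% of all 22925 genes tested were called (22.5% higher and 23.3% lower). With 6 genes, neither count is set apart from its background. Over all genes tested the median log2 fold change was 0.02 in each line; TMM scaling centres this value, and library size alone put it at 0.08 in PC3 and 0.01 in VCaP, and upper-quartile factors at 0.04 and 0.07. With the replicate number as a block, since same-numbered PC3 libraries deviated together, 3 of the 6 were called in PC3, as MALAT1 and PVT1 joined NEAT1, and 11297 genes were called in place of 7149.

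**Figure D1:**
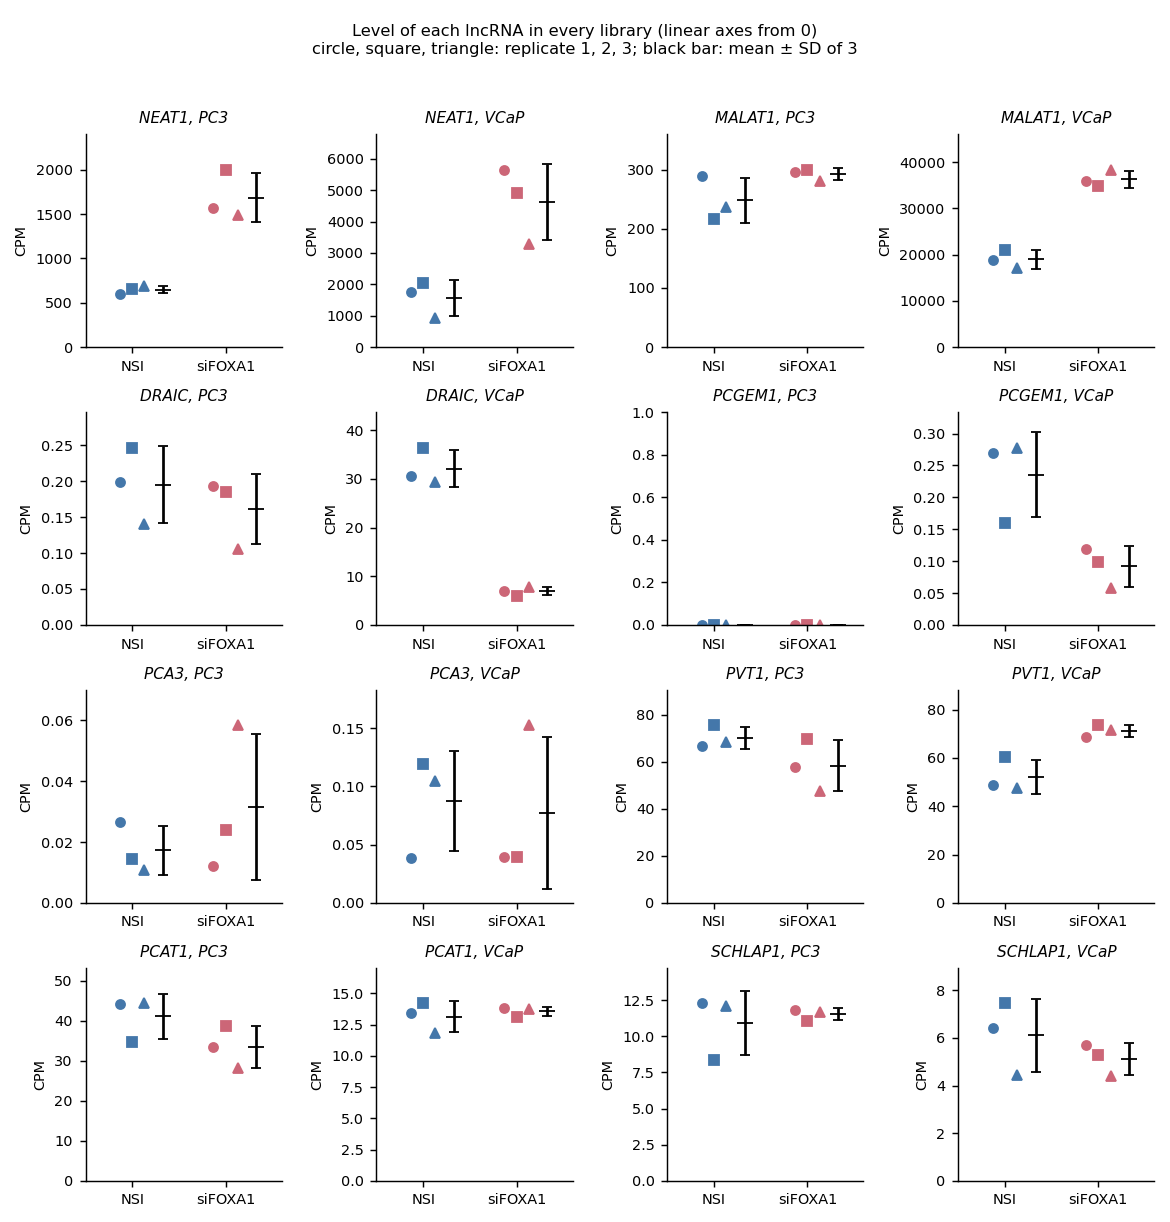
Level of each lncRNA (CPM, linear axes from 0, 1 panel per gene and line) in every library, NSI in blue and siFOXA1 in red, with replicates 1, 2 and 3 as circle, square and triangle and the mean ± SD of 3 as a black bar. NEAT1 was apart between NSI and siFOXA1 in both lines, MALAT1, PVT1, DRAIC and PCGEM1 in VCaP alone, and PCGEM1 was at 0 in every PC3 library. Groups of 3 can be apart without a call, as for FAM84B in VCaP (log2 fold change −0.08, edgeR adjusted p 0.25). The share of all genes with groups apart is not given here. Of all genes tested, 27.0% were called in PC3 and 45.8% in VCaP.

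NEAT1 rose in both lines. The gene (ENSG00000245532.8_4) lies on chromosome 11, 65190245 to 65213011, plus strand, GRCh37, and is annotated as 1 block of 22767 exon bases, so its isoforms are counted together. In PC3 it stood at 603.8, 650.2 and 686.5 CPM in NSI and at 1572, 2002 and 1488 CPM in siFOXA1. Every siFOXA1 library was above every NSI library, with 1488 CPM as the lowest against 686.5 CPM as the highest NSI value. The mean went from 647 ± 41.4 to 1687 ± 276 CPM (SD, n = 3 per group), for a log2 fold change of 1.38 (SE 0.13, at an adjusted p of 1.36e-04 by edgeR's quasi-likelihood test). NEAT1 went from the 156th to the 33rd most counted gene of PC3. The 7 matched markers of other cell types went from 21.0–24.9 to 35.1–38.9 CPM in sum with siFOXA1 in PC3, chiefly COL1A1 (20.7 to 31.8 CPM on average), and none of the 7 was at 0 in every library of a group. Epithelial markers went from 400–512 to 378–425 CPM in sum. Their part in the NEAT1 result was not tested. In bulk RNA, a change in the cells present and a change in RNA per cell cannot be told apart.

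In VCaP, NEAT1 stood at 1748, 2028 and 930.1 CPM in NSI and at 5658, 4925 and 3291 CPM in siFOXA1. The groups again did not overlap, but replicate 3 was the lowest library of both groups. The mean went from 1569 ± 571 to 4625 ± 1212 CPM (SD, n = 3 per group), for a log2 fold change of 1.56 (SE 0.28, at an adjusted p of 0.0016 by edgeR's quasi-likelihood test). The ratio of siFOXA1 to NSI within replicate numbers 1, 2 and 3 was 3.24, 2.43 and 3.54, and without both libraries numbered 3 the log2 fold change was 1.49. The rise of NEAT1 was called under all 16 alternatives in PC3 and all 17 in VCaP. The difference between the lines, VCaP minus PC3, was 0.20 on the log2 scale (SE 0.33, adjusted p 0.75), and its sign turned to −0.06 without VCaP NSI replicate 3.

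MALAT1 rose in VCaP. The gene (ENSG00000251562.8_3) lies downstream of NEAT1 on chromosome 11, 65265159 to 65273987, plus strand. In VCaP it stood at 18847, 21039 and 17024 CPM in NSI and at 35836, 34744 and 38358 CPM in siFOXA1. The siFOXA1 libraries lay close together and far above all NSI libraries. The mean went from 18970 ± 2010 to 36313 ± 1854 CPM (SD, n = 3 per group), a fold of 1.91 and a log2 fold change of 0.94 (SE 0.12, at an adjusted p of 1.54e-04 by edgeR's quasi-likelihood test). MALAT1 was already the 5th most counted gene in VCaP NSI and became the 3rd, going from 1.91% to 3.61% of all counts on average.

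In PC3, MALAT1 stood at 290.2, 216.8 and 237.8 CPM in NSI and at 296.7, 300.2 and 280.7 CPM in siFOXA1. NSI replicate 1 lay within the siFOXA1 range, and the other 2 NSI libraries lay below it. The means were 248 ± 37.8 and 293 ± 10.4 CPM (SD, n = 3 per group), for a log2 fold change of 0.24 (SE 0.11, at an adjusted p of 0.16 by edgeR's quasi-likelihood test). With the replicate block it was 0.25 with an adjusted p of 0.0340, and without NSI replicate 1 it was 0.36 with an adjusted p of 0.0400. The response was larger in VCaP by 0.72 on the log2 scale (SE 0.20, adjusted p 0.0157 by edgeR's quasi-likelihood test for the interaction). That call was lost, at adjusted p of 0.0530 to 0.0573, without PC3 NSI replicate 1, without PC3 siFOXA1 replicate 1, without PC3 siFOXA1 replicate 3, and without both VCaP libraries numbered 3.

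MALAT1 and NEAT1 together took 1.73% to 2.40% of the counts in VCaP NSI and 3.99% to 4.23% in VCaP siFOXA1. In PC3, from polyadenylated RNA, they took 0.0844% to 0.0913% and 0.181% to 0.233%. All other lincRNA and antisense genes outside the 8 held 2.22% to 2.39% of the counts in VCaP NSI and 2.27% to 2.34% in siFOXA1, with overlapping ranges. Other parts of the VCaP libraries moved with the treatment: mitochondrial genes went from 3.02%–3.29% to 4.04%–4.69% of counts and protein-coding genes from 68.3%–70.5% to 61.4%–65.3%. Small nuclear, nucleolar and other small structural RNAs were at 17.3%–19.7% in NSI and 19.4%–22.5% in siFOXA1, with overlapping ranges. Without mitochondrial genes the log2 fold changes in VCaP were 0.94 for MALAT1 and 1.56 for NEAT1. With both lncRNAs left out of the library sizes they were 0.93 and 1.55. Summed epithelial markers were 732 to 774 CPM in NSI and 715 to 774 CPM in siFOXA1, and the 7 markers of other cell types 5.36 to 9.36 and 2.699 to 6.56 CPM. The summed luminal and VCaP markers went from 1930–2290 to 1012–1333 CPM, and VIM with CD44 from 5.10–6.43 to 23.9–25.3 CPM. The part of the small RNAs and of these markers in the result was not tested.

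Proteins of paraspeckles and nuclear speckles were counted beside the 2 RNAs. Of all genes tested, 12.1% fell in PC3 and 23.3% in VCaP. Of the protein-coding genes tested, 13.5% fell in PC3 and 30.0% in VCaP. The lists were not tested against either. Of 26 listed paraspeckle proteins, all tested, 7 fell and 0 rose in PC3, with a median log2 fold change of −0.20, and 12 fell and 2 rose in VCaP, with a median of −0.14, against 0.02 over all genes in each line. In PC3, 1 was higher at an unadjusted p under 0.05 by edgeR, DESeq2 called 0 higher and 9 lower, and with the replicate block edgeR called 19 lower and 1 higher. The fit with the block called 5563 of all 26435 genes tested lower and 5734 higher. NONO, a core paraspeckle protein that binds NEAT1, went down in PC3, from 666 ± 18.4 to 260 ± 17.0 CPM (SD, n = 3 per group), for a log2 fold change of −1.36 (SE 0.09, at an edgeR adjusted p of 1.94e-05), followed by SMARCA4, a chromatin remodelling ATPase, at −0.66. In VCaP, HNRNPF, an RNA-binding protein, fell, at −0.65, while AKAP8L, at 0.35, and SS18L1, at 0.16, rose.

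Of 17 listed nuclear speckle proteins, 7 fell and 1 rose in each line, with medians of −0.10 in PC3 and −0.15 in VCaP. Among all protein-coding genes tested, 13.5% fell and 16.7% rose in PC3, and 30.0% fell and 25.7% rose in VCaP. SRSF3, an SR splicing factor, fell in both lines, with log2 fold changes of −0.63 in PC3 and −0.38 in VCaP. RNPS1, a splicing activator, fell by 0.48 in PC3, ALYREF, an mRNA export adaptor, fell by 1.01 in VCaP, and SRSF5, another SR protein, rose by 0.32 and 0.28 in PC3 and VCaP. Of 14 genes for the 3′ end processing or stability of MALAT1 and NEAT1 (RNase P subunits, the RNase Z ELAC2, METTL16 and exosome nucleases), 5 fell in PC3, with a median of −0.35, and 3 fell in VCaP, with a median of −0.10. Of all genes tested, 12.1% fell in PC3 and 23.3% in VCaP, and this list was not tested against them. None rose in either line at the adjusted p threshold, by edgeR or by DESeq2; at an unadjusted p under 0.05, edgeR had 0 higher in PC3 and 1 in VCaP. With the replicate block, 10 fell in PC3, where that fit called 5563 of all 26435 genes tested lower. POP1, the largest protein subunit of RNase P, fell by 0.65 in PC3 and fell by 0.53 in VCaP. RPP38 fell by 0.46 in PC3 and POP7 fell by 0.38 in VCaP, both subunits of the same enzyme.

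DRAIC fell in VCaP. The gene (ENSG00000245750.8_3) lies on chromosome 15, 69854062 to 70135459, plus strand, and its 14944 exon bases overlap an exon of another gene over 0.85%. In VCaP it stood at 30.5, 36.4 and 29.4 CPM in NSI and at 6.97, 6.04 and 7.83 CPM in siFOXA1. All 3 siFOXA1 libraries were below all NSI libraries by a wide margin. The mean went from 32.1 ± 3.78 to 6.95 ± 0.891 CPM (SD, n = 3 per group), or 21.6% of NSI, with a log2 fold change of −2.21 (SE 0.12, at an adjusted p of 9.28e-07 by edgeR's quasi-likelihood test). Of the 22925 genes tested in VCaP, 22745, or 99.2%, had a higher log2 fold change than DRAIC. FOXA1 itself was at −2.60.

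In PC3 DRAIC was low, with 18 to 34.25 deposited counts per library. It stood at 0.198, 0.247 and 0.140 CPM in NSI and at 0.193, 0.185 and 0.105 CPM in siFOXA1. The groups overlapped, and replicate 3 was lowest in both. The log2 fold change was −0.27 (SE 0.36, adjusted p 0.61 by edgeR's quasi-likelihood test). The difference between the lines was −1.92 on the log2 scale (SE 0.31, adjusted p 3.54e-04) and was called under all 22 alternatives, from −2.22 to −1.79.

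PCGEM1 had counts in VCaP and none in PC3. The gene (ENSG00000227418.6_3) lies on chromosome 2, 193614571 to 193641625, plus strand, with 1712 exon bases and no exon overlap with another gene. In VCaP it had 13.5, 8 and 16 deposited counts in NSI (0.270, 0.159 and 0.278 CPM) and 5.75, 5 and 3 in siFOXA1 (0.119, 0.0994 and 0.0571 CPM). The groups did not overlap, at counts too low for the filter. Summed and rounded, 38 counts in NSI stood against 14 in siFOXA1, a ratio of 0.381 after scaling (95% interval 0.191 to 0.719, which covers counting error only). Tested without the filter, its log2 fold change was −1.36 (SE 0.44, adjusted p 0.0157 by edgeR's quasi-likelihood test), while DESeq2 gave −1.38 with an adjusted p of 0.127. In PC3 all 6 libraries had 0 counts, which allows up to 0.0159 to 0.0244 CPM per library at 3 counts, a limit for counting error only.

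PCA3, on chromosome 9 (ENSG00000225937.2_4, 79306926 to 79478223, plus strand), was at the edge of detection in both lines. It had 4, 2.18 and 2.5 deposited counts in PC3 NSI and 2.5, 3 and 9.5 in PC3 siFOXA1. In VCaP it had 2.5, 5.5 and 6.5 in NSI and 2, 1.65 and 8.17 in siFOXA1. The groups overlapped in both lines, and the highest library of each siFOXA1 group was replicate 3. The ratios of summed counts were 1.78 in PC3 (95% interval 0.732 to 4.63) and 0.886 in VCaP (0.374 to 2.06), so a change was not detectable at this depth. PCA3 lies inside PRUNE2, on the other strand, and shares 7.26% of its exon bases with it. PRUNE2 had a mean of 20254 counts in VCaP, where counting used strand, and 31 in PC3, where it did not.

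PVT1 rose in VCaP. The gene (ENSG00000249859.9_3) lies on chromosome 8, 128806803 to 129113499, plus strand, with 3.03% of its 4198 exon bases shared with genes on the other strand. In VCaP it stood at 48.9, 60.2 and 47.5 CPM in NSI and at 68.6, 73.4 and 71.5 CPM in siFOXA1. The groups did not overlap, and replicate 2 was highest in both. The mean went from 52.2 ± 6.97 to 71.2 ± 2.42 CPM (SD, n = 3 per group), a fold of 1.36 and a log2 fold change of 0.45 (SE 0.09, at an adjusted p of 0.0028 by edgeR's quasi-likelihood test). In VCaP, 21.0% of the genes tested had a higher log2 fold change.

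In PC3, PVT1 stood at 66.5, 75.4 and 68.2 CPM in NSI and at 57.8, 69.6 and 47.7 CPM in siFOXA1. Within each replicate number siFOXA1 was below NSI, with ratios of 0.869, 0.923 and 0.700, but the groups overlapped through siFOXA1 replicate 2. The log2 fold change was −0.26 (SE 0.14, adjusted p 0.18 by edgeR's quasi-likelihood test). It was −0.28 with an adjusted p of 0.0187 under the replicate block, and −0.44 with an adjusted p of 0.0250 without siFOXA1 replicate 2. The responses of the lines differed by 0.73 on the log2 scale (SE 0.17, adjusted p 0.0047 by edgeR's quasi-likelihood test), and this was called under all 22 alternatives, from 0.57 to 0.84.

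PCAT1 did not pass the test in either line. The gene (ENSG00000253438.3_3) lies on chromosome 8, 127568568 to 128431295, plus strand, upstream of MYC and PVT1. In PC3 it stood at 44.3, 34.6 and 44.3 CPM in NSI and at 33.4, 38.6 and 28.1 CPM in siFOXA1. The groups overlapped through replicate 2, which was the lowest of NSI and the highest of siFOXA1. The log2 fold change was −0.30 (SE 0.14, adjusted p 0.15 by edgeR's quasi-likelihood test), and −0.41 with an adjusted p of 0.0421 without NSI replicate 2.

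In VCaP, PCAT1 stood at 13.4, 14.2 and 11.8 CPM in NSI and at 13.8, 13.1 and 13.7 CPM in siFOXA1, with overlapping groups. The log2 fold change was 0.05 (SE 0.09, adjusted p 0.68 by edgeR's quasi-likelihood test), and −0.03 without NSI replicate 3. The difference between the lines was 0.37 (SE 0.17, adjusted p 0.15), and 0.45 with an adjusted p of 0.0299 without PC3 NSI replicate 2. Its exons share 8.93% of their bases with FAM84B on the other strand and 6.83% with POU5F1B on the same strand. FAM84B had a mean of 56356 counts in PC3, where strand was ignored in counting, and fell there by 0.52 on the log2 scale (adjusted p 0.0037). Reads of the 2 genes cannot be told apart in that stretch, so the PC3 value of PCAT1 is uncertain.

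SCHLAP1 (ENSG00000281131.1_2, chromosome 2, 181556831 to 181781666, plus strand) did not pass the test in either line. In PC3 it stood at 12.3, 8.38 and 12.1 CPM in NSI and at 11.8, 11.1 and 11.7 CPM in siFOXA1. NSI replicate 2 was the one low library, and the groups overlapped. The log2 fold change was 0.08 (SE 0.15, adjusted p 0.73 by edgeR's quasi-likelihood test), and −0.08 without that library. In VCaP it stood at 6.43, 7.45 and 4.45 CPM in NSI and at 5.72, 5.27 and 4.40 CPM in siFOXA1.

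The VCaP groups of SCHLAP1 overlapped through NSI replicate 3. The log2 fold change there was −0.25 (SE 0.18, adjusted p 0.30 by edgeR's quasi-likelihood test). Without NSI replicate 3 it was −0.44 with an adjusted p of 0.0286, and without both libraries numbered 3 it was −0.34 with an adjusted p of 0.0421. The difference between the lines was −0.30 (SE 0.25, adjusted p 0.46). SCHLAP1 shares 14.8% of its 1436 exon bases with the lincRNA AC009478.1 on the other strand, which strand-blind counting in PC3 could not separate.

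**Figure D2:**
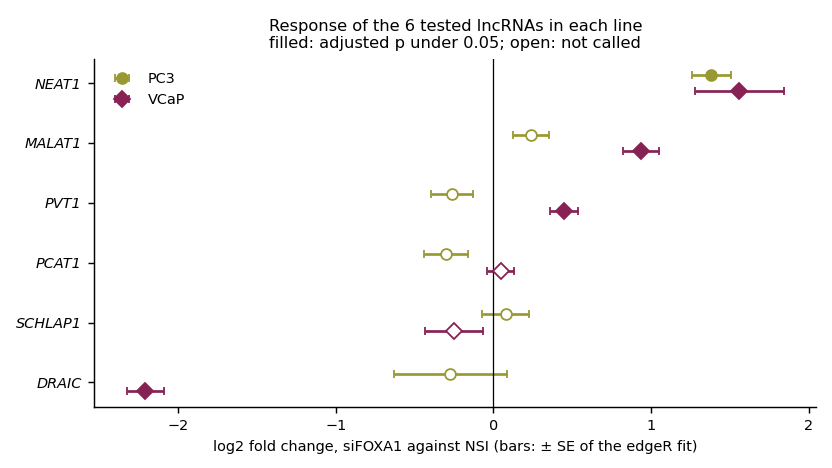
log2 fold change of siFOXA1 against NSI (x axis) with its SE for the 6 lncRNAs tested in each line, PC3 as circles and VCaP as diamonds, filled where the adjusted p was under 0.05. NEAT1 was filled in both lines, at 1.38 in PC3 and 1.56 in VCaP, while MALAT1, PVT1 and DRAIC were filled in VCaP and open in PC3. The fits drawn had no replicate block, with which MALAT1 (edgeR adjusted p 0.0340) and PVT1 (0.0187) were called in PC3.

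The test of the difference between the lines separated the lncRNAs into those that responded differently and those for which this was not shown. Of 6 lncRNAs tested in both lines, MALAT1 and PVT1 had higher responses in VCaP and DRAIC a lower one, where 22.2% of all 30425 genes tested were called (11.3% higher and 11.0% lower in VCaP). NEAT1, PCAT1 and SCHLAP1 were not called. PCGEM1 entered that fit but was at 0 in all PC3 libraries, so its difference has no usable value. The knockdown was itself deeper in VCaP, by −1.93 on the log2 scale for FOXA1 (SE 0.15, adjusted p 3.12e-07). The part of this deeper knockdown in these differences was not tested. Line, dose, medium, library kit and the use of strand in counting cannot be told apart in them either.

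The order of the levels, compared per kilobase of exon, changed at 1 place in each line. In VCaP NSI the group means were 2724 CPM per kilobase for MALAT1, 68.9 for NEAT1, 12.4 for PVT1, 4.26 for SCHLAP1, 2.15 for DRAIC, 1.06 for PCAT1, 0.138 for PCGEM1 and 0.0068 for PCA3. With siFOXA1 they were 5214 for MALAT1, 203.1 for NEAT1, 17.0 for PVT1, 3.57 for SCHLAP1, 1.09 for PCAT1, 0.465 for DRAIC, 0.0537 for PCGEM1 and 0.0060 for PCA3. DRAIC and PCAT1 thus changed places.

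In PC3 NSI the means per kilobase were 35.7 for MALAT1, 28.4 for NEAT1, 16.7 for PVT1, 7.61 for SCHLAP1, 3.31 for PCAT1, 0.0131 for DRAIC and 0.0013 for PCA3, with PCGEM1 at 0. With siFOXA1, NEAT1 at 74.1 passed MALAT1 at 42.0, and PVT1 at 13.9, SCHLAP1 at 8.04, PCAT1 at 2.68 and DRAIC at 0.0108 followed in the same order. In CPM, not scaled by length, NEAT1 was already above MALAT1 in PC3 NSI, at 647 against 248. The length used for NEAT1 was 22767 bases, all isoforms together, and its long isoform has no poly(A) tail. Within each of the 4 groups, the library ranges of neighbours in the order did not overlap. Side by side, the NSI means of MALAT1 and NEAT1 were 2724 and 68.9 CPM per kilobase in total RNA of VCaP and 35.7 and 28.4 in polyadenylated RNA of PC3.

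**Figure D3:**
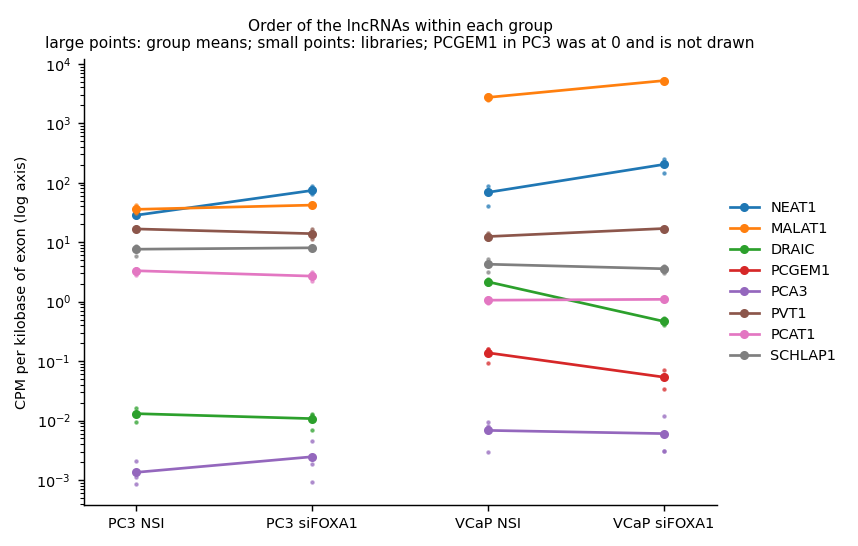
CPM per kilobase of exon (log axis) of the 8 lncRNAs in the 4 groups, with group means as large points joined within a line and libraries as small points. NEAT1 passed MALAT1 in PC3 with siFOXA1 (74.1 against 42.0), and DRAIC dropped below PCAT1 in VCaP with siFOXA1 (0.465 against 1.09). In CPM, not scaled by length, NEAT1 was above MALAT1 in both PC3 groups.

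The protein-coding genes flanking each lncRNA were read next to it. FRMD8, the gene of a membrane adaptor, lies 9.25 kb upstream of NEAT1 and 84.2 kb upstream of MALAT1. In VCaP, where both lncRNAs rose, FRMD8 rose from 40.6 ± 2.10 to 59.8 ± 5.33 CPM (SD, n = 3 per group), by 0.56 on the log2 scale (edgeR adjusted p 2.50e-04). In PC3 its groups overlapped, with a log2 fold change of −0.21 (adjusted p 0.15).

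MYC, the proto-oncogene 53.1 kb upstream of PVT1, fell in PC3, where it went from 842 ± 28.5 to 369 ± 22.5 CPM (SD, n = 3 per group), for a log2 fold change of −1.19 (SE 0.09, at an edgeR adjusted p of 3.87e-05). In VCaP its groups overlapped, at 255 ± 42.2 and 242 ± 23.9 CPM (log2 fold change −0.07, adjusted p 0.64). MYC thus passed the test in PC3, where PVT1 did so with the replicate block and without siFOXA1 replicate 2 but not otherwise in the alternatives run, and PVT1 passed in VCaP, where MYC did not. The 2 genes were not tested against each other. The next protein-coding gene beyond PVT1, at 1647 kb, was GSDMC, a gasdermin. GSDMC rose in both lines from very low levels, from 0.0460 to 0.427 CPM in PC3 (log2 fold change 3.23, edgeR adjusted p 0.0019) and from 0.195 to 8.15 CPM in VCaP (5.37, adjusted p 1.98e-07). TRIB1, a pseudokinase gene 1118 kb upstream of PCAT1, fell in VCaP by 1.58 on the log2 scale (edgeR adjusted p 1.14e-06) and was not called in PC3 (0.14, adjusted p 0.34).

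On chromosome 15, TLE3, a transcriptional corepressor gene 204.7 kb beyond DRAIC, fell with it in VCaP, from 278 ± 1.44 to 92.6 ± 7.31 CPM (SD, n = 3 per group; log2 fold change −1.58, edgeR adjusted p 4.96e-07). TLE3 also fell in PC3, at −0.79 (adjusted p 3.09e-04), where DRAIC was at 0.105 to 0.247 CPM. RPLP1, a ribosomal protein gene on the other side of DRAIC, was not called, at −0.38 (adjusted p 0.26; 0.0031 with the replicate block) in PC3 and −0.36 (adjusted p 0.0526) in VCaP. In VCaP, PRUNE2, the host of PCA3, fell from 492 ± 3.07 to 280 ± 16.9 CPM (edgeR adjusted p 1.59e-05). GCNT1, a glycosyltransferase gene 184.6 kb from PCA3, fell in VCaP by 0.81 on the log2 scale (adjusted p 1.45e-04) while it rose by 1.65 in PC3 (adjusted p 1.45e-04). TMEFF2, an androgen-regulated membrane protein gene and the nearest to PCGEM1 on its left at 554 kb, fell by 2.00 in VCaP (adjusted p 1.20e-06). CWC22, a splicing factor gene 685 kb from SCHLAP1, fell by 0.25 in PC3 (edgeR adjusted p 0.0436) and rose by 0.23 in VCaP (adjusted p 0.0197). UBE2E3, 63.4 kb from SCHLAP1 on the other side, was not called in either line, at −0.26 in PC3 (adjusted p 0.0739, or 0.0057 with the replicate block) and −0.09 in VCaP (adjusted p 0.50).

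**Figure D4:**
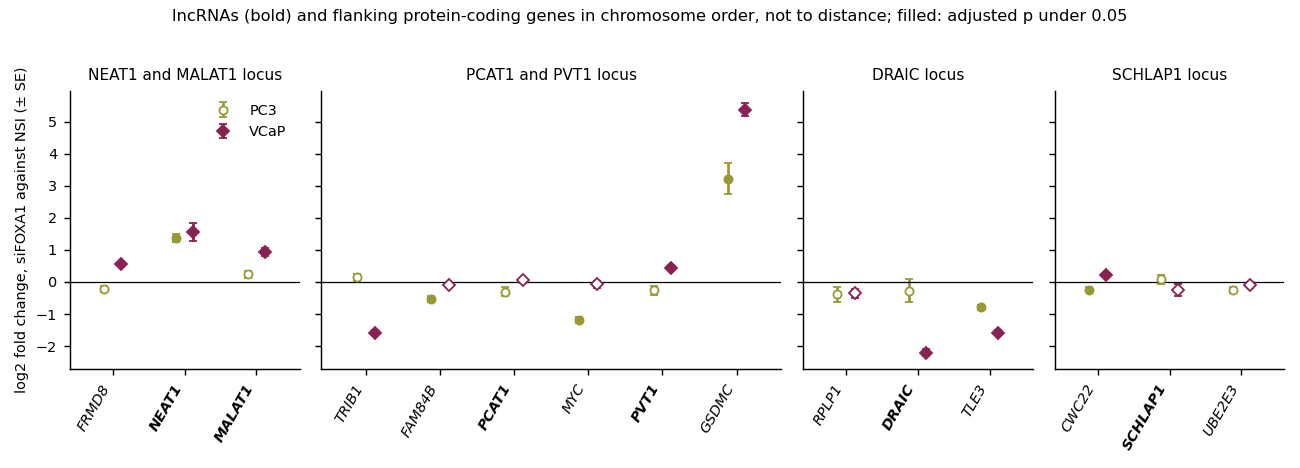
log2 fold change of siFOXA1 against NSI (± SE, y axis) for the lncRNAs (bold) and their flanking protein-coding genes in chromosome order, not drawn to distance, PC3 as circles and VCaP as diamonds, filled at adjusted p under 0.05. The fits drawn had no replicate block. MYC fell in PC3 beside an open PVT1, and DRAIC fell in VCaP beside TLE3, which fell in both lines.

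Genes with a pattern like each lncRNA were ranked by Pearson correlation of log2 CPM, centred within each line, over the 12 libraries, with 9878 candidates whose mean reached 5 CPM in PC3 and in VCaP (9879 for DRAIC). These correlations are descriptions with no p: all points share libraries, and a response to treatment that a pair of genes shares raises r. The genes most like NEAT1 were RNPC3 (r 0.98), a protein of the minor spliceosome, NUCB2 (r 0.98) and ZNF83 (r 0.98), all 3 called higher in both lines, with log2 fold changes of 0.74, 0.79 and 0.46 in PC3 and 0.73, 1.05 and 0.59 in VCaP. Among those most like MALAT1 were KDM4C (r 0.98), a histone demethylase, and CCDC14 (r 0.98), a centrosomal protein, with log2 fold changes of 0.63 and 1.43 in VCaP, both called, and of 0.08 and 0.38 in PC3, where KDM4C was not called.

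For DRAIC the nearest were IARS2 (r 0.98), a mitochondrial tRNA synthetase, RAVER1 (r 0.97), an RNA-binding protein, and TUSC3 (r 0.97), an oligosaccharyltransferase subunit, with log2 fold changes in VCaP of −0.36, −0.50 and −1.04 and no call in PC3. For PVT1 they were GIGYF1 (r 0.96), ENOSF1 (r 0.94) and PPWD1 (r 0.94), all called higher in VCaP, by 0.25 to 0.32 on the log2 scale, and not called in PC3, though ENOSF1 was with the replicate block (−0.23, adjusted p 0.0143). The likeness was weaker for SCHLAP1, with YAP1 (r 0.91), the Hippo pathway coactivator, KCTD9 (r 0.89) and VPS50 (r 0.89), and for PCAT1, with the antisense genes RP11-322M19.1 (r 0.90) and RP11-773D16.1 (r 0.88) and with TMEM165 (r 0.86). None of the 6 was called in either line; with the replicate block RP11-773D16.1 was in PC3 (−0.28, adjusted p 0.0208) and YAP1 in VCaP (−0.24, adjusted p 0.0157).

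Of 24 other lncRNAs linked to prostate cancer, 19 were matched in the tables. In PC3, 14 were tested, 4 rose and 1 fell (6 and 3 with the replicate block), with a median log2 fold change of 0.21. Of all genes tested there, 15.0% rose and 12.1% fell (5734 and 5563 of 26435 with the block). In VCaP, 15 were tested, 5 rose and 4 fell, with a median of 0.17, where 22.5% of all genes tested rose and 23.3% fell. Over all lincRNA and antisense genes tested the medians were 0.20 in PC3 and 0.15 in VCaP. The list was not tested against these. PCAT14 went in opposite directions, from 0.117 to 1.40 CPM in PC3 (log2 fold change 3.59, edgeR adjusted p 4.70e-05) and from 307 to 71.4 CPM in VCaP (−2.10, adjusted p 2.43e-07). HOTTIP, a lncRNA of the HOXA cluster, rose in both lines, by 0.70 in PC3 and 1.02 in VCaP. GAS5 fell by 0.53 in PC3. In VCaP it was at −0.44, not called at an edgeR adjusted p of 0.0614 but called with the replicate block (2.91e-04). CTBP1-AS fell by 2.77 in VCaP, and LINC00844, listed under the name RP11-456A18.1, rose there from 0.145 to 4.01 CPM (log2 fold change 4.77).

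DRAIC and PCGEM1 are known from androgen-responsive cells, and androgen-regulated genes were counted beside them. In VCaP, 10 of 15 listed genes fell and 2 rose, with a median log2 fold change of −0.64, where 23.3% of all genes tested fell and 22.5% rose. Of the protein-coding genes tested in VCaP, 30.0% fell and 25.7% rose. The list was not tested against either. HERC3, a ubiquitin ligase gene, had a log2 fold change of −0.71, while FKBP5, a steroid receptor cochaperone, rose by 1.49 and NDRG1 by 0.53. KLK3, which encodes prostate-specific antigen, had 69.4 ± 28.5 CPM in VCaP NSI and 63.3 ± 16.0 CPM in siFOXA1 (log2 fold change −0.13, edgeR adjusted p 0.71). In PC3, 5 of 13 tested rose and 2 fell (6 and 3 with the replicate block), with a median of 0.02. Of the protein-coding genes tested in PC3, 16.7% rose and 13.5% fell. Of all genes tested there, 15.0% rose and 12.1% fell (5734 and 5563 of 26435 with the block). STEAP4 rose there by 3.98 on the log2 scale, to 0.827 CPM, while PMEPA1 fell by 1.65 and FKBP5 fell by 0.51.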

How the data were processed

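Gene counts of 12 libraries were analysed, grouped by their titles. Per the file headers, the authors made the deposited estimated counts with featureCounts, summing exons by gene (GENCODE v28lift37 basic annotation, GRCh37) and dividing fragments that mapped to several places or genes, so 54.8% to 75.2% of nonzero values were not whole; PC3 counting ignored strand and VCaP counting used the reverse strand. The submitters' processing notes name STAR 2.7.3a and Subread 2.0.0.

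The counts were rounded. Each line was fitted alone with edgeR 4.0.16 in R 4.3.3 (filterByExpr, TMM factors of 0.974 to 1.03 in PC3 and 0.959 to 1.04 in VCaP, two-sided quasi-likelihood test, Benjamini-Hochberg adjustment over all genes tested, calls at adjusted p under 0.05). The difference between lines is the interaction of a fit over all 12 libraries. An SE is the log2 fold change divided by the square root of F; fitted fold changes include a small prior count. CPM used the within-line TMM factors, and CPM per kilobase the exon length in the tables. DESeq2 1.42.0 was an alternative. In simulated counts of independent libraries, the steps recovered the direction of known large changes. Pairing by replicate number was not simulated. The variation between replicate libraries beyond counting error, as edgeR's coefficient, came to 15.0% (PC3), 9.90% (VCaP) and 12.8% (joint fit). The labels do not say whether this variation is biological or technical.

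Named genes were the 8 members, FOXA1, each member's flanking and overlapping protein-coding genes, the 3 genes most correlated with it, and, per list, line and direction, at most 2 called genes with the smallest adjusted p; KLK3 and other markers and AC009478.1 were named beside them. A few genes that this rule names, and a second promoter motif, are not reported here. The members and lists were chosen with earlier results of these data known. Alternatives were other scalings, DESeq2, no filter, a replicate block, no mitochondrial genes, a joint fit, each library left out, and 3 added after seeing the data (both VCaP libraries numbered 3 left out, MALAT1 and NEAT1 left out of library sizes, TMM before the filter).

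Replicate numbers come from the titles. After subtracting group means, libraries with one number correlated in PC3 at 0.66, 0.72 and 0.30 over genes of at least 5 CPM (0.15, 0.31 and 0.09 over all tested), so the numbers were taken to pair the PC3 libraries, and in VCaP at 0.16, −0.03 and 0.38, so they were not. The main fits, that of PC3 included, used no pairing, and the replicate block was run as an alternative. Replicates differed by a chi-square per degree of freedom of 9.80 to 141.4, so none was a copy of another. Promoter windows are from RefSeq (GRCh38.p14); all other coordinates are GRCh37, counted from 1.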

Additional observations from a re-analysis of the deposited data

Results flagged for a closer look

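The response to siFOXA1 differed between the lines, by the edgeR interaction test at an adjusted p under 0.05, for 3 of the 6 lncRNAs tested in both lines. Of all 30425 genes tested, 22.2% were called. The VCaP log2 fold change minus that of PC3 was 0.72 for MALAT1, 0.73 for PVT1 and −1.92 for DRAIC. The MALAT1 call was lost under 4 of 22 alternatives. FOXA1 itself differed by −1.93. Line, dose, medium and library kit cannot be told apart in these differences. Groups of 3 libraries are too small for a test of single outlying libraries, so none was run.

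Among genes flanking the lncRNAs, the difference was positive for FRMD8 (0.80), MYC (1.13), FAM84B (0.46), GSDMC (2.18) and CWC22 (0.50). It was negative for GCNT1 (−2.44), PRUNE2 (−1.91), TRIB1 (−1.70), TMEFF2 (−2.74) and TLE3 (−0.77). GCNT1 and CWC22 were called in both lines in opposite directions.

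Among the listed genes, the paraspeckle proteins NONO (0.95), SMARCA4 (0.47), AKAP8L (0.70) and SS18L1 (0.31) had higher responses in VCaP, and HNRNPF (−0.43) a lower one. The speckle protein ALYREF differed by −0.47 and the RNase P subunit RPP38 by 0.45. Of the other lncRNAs, PCAT14 differed by −5.68, CTBP1-AS by −2.32 and HOTTIP by 0.34. Of the androgen-regulated genes, FKBP5 differed by 2.02, STEAP4 by −4.62 and HERC3 by −1.41.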

How the results depend on the processing

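In PC3, genes called went from 7149 to 11297 with the replicate block (paired fit), and ranged from 3945 (without siFOXA1 replicate 1; 4602 without NSI replicate 3) to 7592 with 1 library left out. Members called in PC3 went from 1 to 3 with the block and ranged from 1 to 2 with 1 library left out. In VCaP 4 to 5 members were called over 17 alternatives, and 2 to 4 for the difference between lines over 22; the block changed no call of these. Of the other named genes in VCaP, the block brought GAS5 (adjusted p 2.91e-04), RPLP1 (0.0031) and YAP1 (0.0157) under the threshold. It took SS18L1 above the threshold (0.0516). Signs turned in 3 results that passed no test. With 1 library left out, the log2 fold change of SCHLAP1 in PC3 ranged from −0.083 (without NSI replicate 2) to 0.16, that of PCAT1 in VCaP from −0.029 (without NSI replicate 3) to 0.099, and the NEAT1 difference from −0.064 (without VCaP NSI replicate 3) to 0.42. Without both VCaP libraries numbered 3, PCAT1 was at −0.033. Log2 fold changes of the calls stayed within 1.21 to 1.44 for NEAT1 in PC3 and, in VCaP, within 1.29 to 1.78 for NEAT1, 0.82 to 1.01 for MALAT1, −2.36 to −2.12 for DRAIC and 0.38 to 0.55 for PVT1, each still called. Library size alone made 40.5% of the calls for the difference higher in VCaP, against 3427 of 6760 with TMM. The cause of these shifts was not tested. Depth limited what could be seen of PCA3 in both lines and of PCGEM1 in VCaP.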

Other observations

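LncRNA genes as a class can be set beside the 8. Of 5168 lincRNA and antisense genes tested in PC3, 843 (16.3%) rose and 275 (5.32%) fell with siFOXA1, with a median log2 fold change of 0.20, while of 15870 protein-coding genes 2656 (16.7%) rose and 2147 (13.5%) fell, with a median near 0 (−0.0027). Of 2598 lincRNA and antisense genes tested in VCaP, 568 (21.9%) rose and 285 (11.0%) fell, with a median of 0.15, while of 14629 protein-coding genes 3762 (25.7%) rose and 4392 (30.0%) fell, with a median of −0.02. Most of these lncRNA genes are low, and the difference between the classes was not tested. Of these lincRNA and antisense genes, 306 in PC3 and 147 in VCaP had a higher log2 fold change than NEAT1, and 2567 of the 2598 in VCaP had a higher one than DRAIC.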
